A study of Mus musculus with 2 samples.

Results

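Dendritic cell lineage genes are followed here in single nuclei of inguinal white adipose tissue (iWAT), as a list of 9 genes out of the 31053 in the deposited matrices. The list holds Flt3, Zbtb46, Xcr1, Clec9a, Batf3, Irf8, Cd209a, Irf4 and Siglech. Members were taken by name, and all 9 were present in both matrices. They were read as summed unique molecular identifiers (UMIs, 1 per captured RNA molecule) and as the nuclei in which at least 2 of them were seen together.

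Dendritic cells take up antigen in tissues, carry it along lymphatic vessels to draining lymph nodes and present it to T cells. They arise from bone marrow precursors that depend on the receptor tyrosine kinase FLT3, and conventional dendritic cells are set apart from most macrophages by the transcription factor ZBTB46. Conventional type 1 cells (cDC1) cross-present antigen to CD8 T cells, need BATF3 and IRF8, and carry the chemokine receptor XCR1 and the dead-cell receptor CLEC9A. Conventional type 2 cells (cDC2) lean on IRF4 and can carry the C-type lectin CD209A (DC-SIGN), and plasmacytoid dendritic cells (pDC), the strong producers of type I interferon, carry the sialic acid lectin Siglec-H.

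The study made these libraries to look at energy expenditure and thermogenesis in iWAT after loss of the long noncoding RNA Lexis from adipocytes. All mice were males on a C57BL/6 background fed a Western diet, and all carried floxed Lexis alleles. The KO group also carried Cre recombinase under the adiponectin promoter (Adipoq-cre), which acts in adipocytes and leaves the alleles of immune cells intact, while the Cre-negative mice are the WT group. Each genotype is 1 library of nuclei from 3 pooled mice, with the lymph node removed according to the protocol, so no value below has a biological replicate and none carries a p-value. The genotype in the name of each deposited matrix is the opposite of the one in its sample record, and Lexis itself was not analysed here. The paper reports a cluster of thermogenic adipocytes found almost only in the KO group, and whether the labels follow it was not tested here. The names WT-labelled and KO-labelled follow the sample records, and any direction between genotypes rests on those labels.

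The libraries differed in depth and in lymphocytes. With at least 500 genes and at most 5% mitochondrial UMIs required, 3649 of 5000 barcodes remained in the WT-labelled library at a median of 1208 UMIs, and 2944 of 5000 in the KO-labelled library at a median of 3973.5, which is 3.29 times deeper. The WT-labelled library held 1243 nuclei with B cell markers, 814 with T or NK cell markers and 160 unnamed nuclei led by Ccl19 and Ccl21a, genes of lymphoid stroma, against 35, 69 and 0 in the other library. Whether lymph node tissue remained in the WT-labelled sample was not tested. Only 10 of the kept barcodes occurred in both libraries. Intervals given below are 95% intervals for counting error only, the limit given for a count of 0 is 3 counts over the total, and CPM is the UMIs of a gene per 1000000 UMIs of the nuclei named.

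Batf3 lay at chr1:191098414-191108943, Zbtb46 at chr2:181371009-181493262, Flt3 at chr5:147330741-147400489 and Clec9a at chr6:129408862-129424764 (GRCm38 coordinates of the RefSeq gene models). Siglech was annotated at chr7:55768154-55779448, Cd209a at chr8:3743395-3748984, Irf8 at chr8:120736358-120756694, Xcr1 at chr9:123852315-123862029 and Irf4 at chr13:30749233-30766981. Promoter windows of 300 bases, from 250 before to 50 after a RefSeq start, were found for all 9 genes, with a second window for Irf8. They were searched on both strands for 3 motifs. The first was GAAA, then any 2 bases, then GAAA, the repeat that IRF proteins bind, and the second was GGAA, then any 2 bases, then GAAA, the composite read by IRF4 or IRF8 with PU.1. The third was TGANTCA, the AP-1 core read by BATF3 with JUN. None of the 10 windows held the IRF repeat, which 3.44% of 32851 mouse promoter windows held. The composite was in the Cd209a window only, against 2.72% of all windows, and TGANTCA was in the Zbtb46 window only, against 7.81%. The windows of the paired cDC1 receptors Clec9a and Xcr1 and of the members with a match are shown, because Clec9a and Xcr1 had UMIs and Cd209a had none in the dendritic-like nuclei described further on. The Zbtb46, Siglech and second Irf8 windows belong to RefSeq starts inside the annotated span of the gene. Capitals mark the matched letters.
Clec9a promoter, chr6:129408612-129408911, plus strand: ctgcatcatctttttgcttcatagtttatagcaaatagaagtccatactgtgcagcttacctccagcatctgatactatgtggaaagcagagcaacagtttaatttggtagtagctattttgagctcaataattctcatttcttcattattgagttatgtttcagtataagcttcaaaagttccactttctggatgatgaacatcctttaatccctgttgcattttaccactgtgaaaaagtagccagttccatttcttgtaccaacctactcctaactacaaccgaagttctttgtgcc
Xcr1 promoter, chr9:123861980-123862279, minus strand: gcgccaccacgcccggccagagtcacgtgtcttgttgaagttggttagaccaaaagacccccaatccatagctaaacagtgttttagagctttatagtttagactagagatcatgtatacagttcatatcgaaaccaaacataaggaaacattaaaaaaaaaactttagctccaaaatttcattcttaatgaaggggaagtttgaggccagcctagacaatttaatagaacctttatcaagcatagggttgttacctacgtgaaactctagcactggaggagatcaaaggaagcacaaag
Cd209a promoter, chr8:3748935-3749234, minus strand: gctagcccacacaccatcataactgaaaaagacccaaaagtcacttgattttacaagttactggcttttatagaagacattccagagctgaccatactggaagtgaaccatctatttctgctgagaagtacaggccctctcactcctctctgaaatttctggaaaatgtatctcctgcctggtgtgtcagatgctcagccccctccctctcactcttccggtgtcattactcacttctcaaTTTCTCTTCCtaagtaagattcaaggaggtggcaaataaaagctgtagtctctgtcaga
Zbtb46 promoter, chr2:181424339-181424638, minus strand: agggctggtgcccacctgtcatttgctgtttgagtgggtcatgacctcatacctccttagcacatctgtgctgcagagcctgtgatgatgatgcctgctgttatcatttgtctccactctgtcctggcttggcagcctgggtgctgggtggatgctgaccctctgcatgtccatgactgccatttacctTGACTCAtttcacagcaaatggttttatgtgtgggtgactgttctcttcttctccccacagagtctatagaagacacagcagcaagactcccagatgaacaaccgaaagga
A match is a run of letters and not a measured binding site, and its absence concerns this window alone.

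Among the genes shared by dendritic cells, Flt3, the receptor for the growth factor FLT3L, gave 103 UMIs in 80 WT-labelled nuclei and 147 UMIs in 58 KO-labelled nuclei. Its level in myeloid nuclei was 47.2 CPM in the WT-labelled library (44 UMIs) and 40.2 CPM in the KO-labelled library (112 UMIs). Dividing nuclei of the WT-labelled library gave 43.4 CPM from 9 UMIs, and those of the KO-labelled library 369 CPM from 5 UMIs in 1 of 5 nuclei. Myocyte nuclei of the KO-labelled library gave 33.7 CPM from 11 UMIs, all in 1 of 58 nuclei. WT-labelled B nuclei stood at 14.2 CPM and T or NK nuclei at 10.8 CPM. Adipocytes gave 4.66 CPM in the WT-labelled and 1.27 CPM in the KO-labelled library. The myeloid class held 42.7% and 76.2% of all Flt3 UMIs.

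Zbtb46 was not limited to the myeloid class. Of its 150 WT-labelled and 587 KO-labelled UMIs, 36.0% and 29.1% were in myeloid nuclei, where its level was 58.0 and 61.4 CPM. Endothelial nuclei, in which this gene is also known to be expressed, gave 77.6 CPM (interval 42.4 to 130, 14 UMIs) in the WT-labelled and 284 CPM (223 to 357, 74 UMIs) in the KO-labelled library. In the latter, 32.8% of 125 endothelial nuclei had a Zbtb46 UMI, against 12% of myeloid nuclei. Mural nuclei of the KO-labelled library gave 66.8 CPM, myocyte nuclei 55.1 CPM, adipose stem and progenitor cell (ASPC) nuclei 35.6 CPM and adipocytes 19.9 CPM. Endothelial and myeloid intervals did not overlap in the KO-labelled library and did overlap in the WT-labelled one, so the order of these classes was resolved in the KO-labelled library only. At 1000 UMIs a nucleus, 20% of endothelial, 5.26% of myeloid and 1.89% of adipocyte nuclei of that library had a Zbtb46 UMI.

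The cDC1 receptors were sparse. Xcr1, the receptor for the chemokine XCL1, gave 40 UMIs in 30 WT-labelled nuclei and 10 UMIs in 8 KO-labelled nuclei. Clec9a gave 81 UMIs in 46 nuclei and 107 UMIs in 40 nuclei. Myeloid nuclei held 52.5% and 70.0% of the Xcr1 UMIs and 59.3% and 66.4% of the Clec9a UMIs. In adipocytes, Clec9a stood at 1.40 CPM and 0.318 CPM, which is 3 UMIs in each library, and Xcr1 at 3 UMIs and 0 UMIs. The 16 Clec9a UMIs of KO-labelled endothelial nuclei, 61.5 CPM, came from 9 of 125 nuclei.

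Batf3, which pairs with JUN and IRF proteins, was the member most held to the myeloid class in the KO-labelled library, with 86.4% of 397 UMIs there and 61.8% of 204 UMIs in the WT-labelled one. Its myeloid level was 135 and 123 CPM, and 20.2% and 25.8% of myeloid nuclei had a UMI. Adipocytes gave 12.1 and 2.86 CPM.

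Irf8, a factor of monocytes, dendritic cells and B cells, had 2009 UMIs in 1051 WT-labelled nuclei and 504 UMIs in 322 KO-labelled nuclei. B nuclei of the WT-labelled library stood at 608 CPM (567 to 651), dividing nuclei at 608 CPM and myeloid nuclei at 494 CPM (450 to 541), and the B and myeloid intervals did not overlap. The unnamed Ccl19 and Ccl21a nuclei followed at 260 CPM, endothelial nuclei at 227 CPM and T or NK nuclei at 212 CPM. In the KO-labelled library the order was B nuclei at 380 CPM from 28 UMIs, of which 17 came from 1 nucleus, dividing nuclei at 369 CPM from 5 UMIs in 1 of 5 nuclei, myeloid nuclei at 96.6 CPM, T or NK nuclei at 84.0 CPM and adipocytes at 17.7 CPM, with endothelial nuclei at 1 UMI.

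A share of nuclei with an Irf8 UMI needs its background. Adipocytes, taken as a class expected to lack it, had a UMI in 20% of 450 WT-labelled nuclei at a median of 3673.5 UMIs and in 12% of 955 KO-labelled nuclei at a median of 8082, against 43.1% and 20% of myeloid nuclei at medians of 1568 and 2899.5. With every nucleus thinned to 1000 UMIs, the shares were 5.69% and 2.00% in adipocytes and 30.2% and 8.40% in myeloid nuclei. Myeloid nuclei stayed above adipocytes at this matched depth in both libraries. RNA free in the droplets gives such UMIs in any nucleus, and its part in the adipocyte values was not tested.

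Of the cDC2 genes, Cd209a gave 48 UMIs in 31 WT-labelled nuclei and 221 UMIs in 125 KO-labelled nuclei, with 58.3% and 81.4% of them in the myeloid class. Its myeloid level was 30.05 and 64.7 CPM, against 0.932 and 2.65 CPM in adipocytes. Cd209b, Cd209d, Cd209f and Cd209g are paralogs of Cd209a, and since sharing of reads among them was not tested, its counts are taken as uncertain.

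Irf4, also known from adipocytes, was the member with the smallest myeloid share, 20.3% of 138 UMIs and 26.3% of 476 UMIs. ASPC nuclei of the KO-labelled library held more of its UMIs, 180 at 52.6 CPM (45.2 to 60.8), than myeloid nuclei, 125 at 44.9 CPM (37.4 to 53.5), and these intervals overlapped. Within the ASPC nuclei, 1 cluster of 381 nuclei led by Sema3e and Sntg1 had 127 UMIs at 99.4 CPM (82.9 to 118), and 22.6% of its nuclei had a UMI. The other large ASPC cluster of that library, 393 nuclei led by Ccbe1 and Sfrp2, stood at 24.9 CPM (18.6 to 32.6). WT-labelled ASPC nuclei gave 13.3 CPM from 11 UMIs. B nuclei held 51 of the 138 WT-labelled UMIs, at 38.04 CPM, and 21 KO-labelled UMIs at 285 CPM, of which 12 came from 1 nucleus. KO-labelled adipocytes gave 15.5 CPM, of which 26 of 146 UMIs came from a single nucleus.

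Siglech gave 235 UMIs in 101 WT-labelled nuclei and 57 UMIs in 40 KO-labelled nuclei. In the WT-labelled library, myeloid nuclei stood at 80.5 CPM, B nuclei at 49.97 CPM, T or NK nuclei at 28.7 CPM, ASPC nuclei at 25.4 CPM and adipocytes at 11.7 CPM. The KO-labelled library had 41 of its 57 UMIs in myeloid nuclei, at 14.7 CPM, 12 in a single nucleus of the B class, 3 in adipocytes and 1 in ASPC nuclei. Siglech and Irf8, both at measurable levels in WT-labelled adipocytes and ASPC nuclei, were near 0 in KO-labelled ASPC nuclei, at 1 and 17 UMIs.

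**Figure D1:**
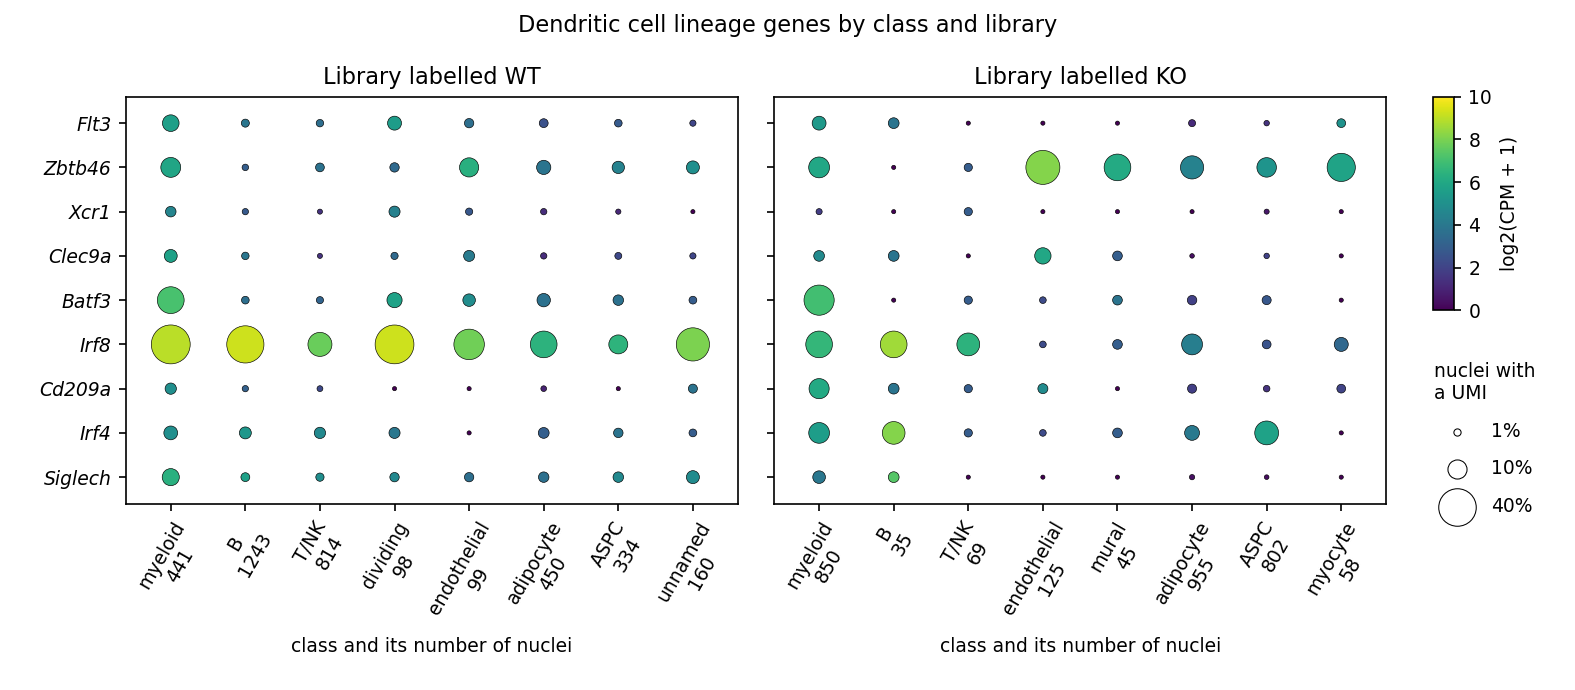
Level of each of the 9 genes (CPM, log scale) by nucleus class and library. Classes with under 20 nuclei in a library are not drawn. Batf3, Flt3 and Cd209a stand highest in myeloid nuclei in both libraries, with intervals that overlap those of some other classes for Flt3 and Cd209a. Zbtb46 stands highest in endothelial nuclei, apart from myeloid nuclei in the KO-labelled library only, and Irf8 in B nuclei, level with dividing nuclei in the WT-labelled library and followed by myeloid nuclei.

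At least 2 members were seen in 278 of 3649 WT-labelled nuclei, 7.62% (6.78 to 8.53), and in 286 of 2944 KO-labelled nuclei, 9.71% (8.67 to 10.8). Of the WT-labelled nuclei, 2312 had no member, 1059 had 1, 189 had 2, 64 had 3, and 25 had at least 4. The corresponding KO-labelled numbers were 1817, 841, 202, 55 and 29. More nuclei held 2 or more members in the deeper library, by 2.10 percentage points (0.71 to 3.50). Thinned to 1000 UMIs, which left out 1238 and 117 shallower nuclei, the shares were 4.36% (105 of 2411) and 2.19% (62 of 2827), and the difference turned to -2.16 points (-3.19 to -1.17).

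These nuclei lay in different classes in the libraries. Myeloid nuclei made up 108 of the 278 WT-labelled nuclei, 38.8%, followed by 66 B nuclei, 31 adipocytes and 25 T or NK nuclei. In the KO-labelled library they made up 200 of 286, 69.9%, followed by 56 adipocytes and 14 ASPC nuclei, with 1 B nucleus. The members behind the counts also differed, since Irf8 was in 87.4% of the WT-labelled and 45.8% of the KO-labelled nuclei with at least 2 members, and Zbtb46 was in 26.3% and 51.7%. Outside the myeloid class Irf8 was in 158 of 170 such WT-labelled nuclei, and Zbtb46 in 67 of 86 KO-labelled ones.

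Adipocytes with at least 2 members were deeper than other adipocytes, at a median of 10729 against 3529 UMIs in the WT-labelled and 12585.5 against 7843 in the KO-labelled library. Marked as doublets were 22.6% and 26.8% of them, against 6.21% and 5.01% of the other adipocytes. The doublet caller Scrublet set its own limit in the KO-labelled library, while in the WT-labelled one, where it marked 0 nuclei, the highest scores were taken. At 1000 UMIs, 1 of 439 and 0 of 950 adipocytes still had 2 members, the latter allowing a share of up to 0.316%. The part of depth and doublets in the adipocyte counts was not tested.

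Within the myeloid class, 24.5% of 441 WT-labelled nuclei (20.5 to 28.8) and 23.5% of 850 KO-labelled nuclei (20.7 to 26.5) had at least 2 members, a difference of -0.96 points (-6.09 to 3.99). At 1000 UMIs the shares were 14.7% (53 of 361) and 7.27% (58 of 798), a difference of -7.41 points (-11.8 to -3.38). Counting only the 7 members other than Irf4 and Irf8, they were 5.26% and 3.51% at 1000 UMIs, a difference of -1.75 points (-4.82 to 0.81). Outside the class, 2.54% and 0.197% of nuclei had at least 2 members at 1000 UMIs.

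**Figure D2:**
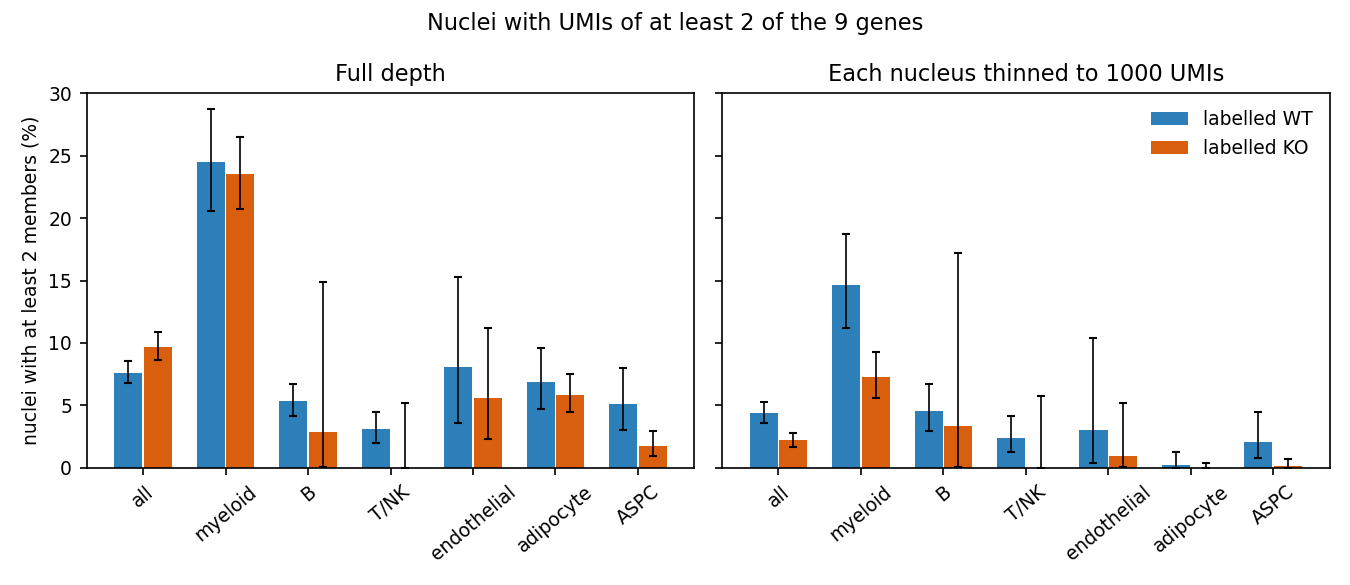
Percent of nuclei with at least 2 of the 9 genes, by class and library, at full depth and with each nucleus thinned to 1000 UMIs, with exact 95% intervals. Myeloid nuclei stand above the other large classes at both depths, and the adipocyte shares of 6.89% and 5.86% drop to 0.228% and 0 at 1000 UMIs.

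Clustered again on their own, with the 9 genes kept out of the clustering, the myeloid nuclei held a small group of 42 nuclei, 18 WT-labelled and 24 KO-labelled, that is called dendritic-like. It was named from 5 of 10 other dendritic markers (Itgax, Wdfy4, Naaa, Kmo and Cadm1), no other class passed more than 2, and none of its nuclei was marked as a doublet. The other markers of that list (Clec10a, Mgl2, Ccr7, Fscn1 and Cacnb3) did not pass. Of them, Clec10a, Mgl2 and Fscn1 were lower in the group than in the remaining myeloid nuclei in both libraries. Ccr7 and Cacnb3 were lower in the WT-labelled library only. The group made up 0.493% of WT-labelled and 0.815% of KO-labelled nuclei. At least 2 members were found in 13 of its 18 WT-labelled nuclei, 72.2% (46.5 to 90.3), and in 23 of its 24 KO-labelled nuclei, 95.8% (78.9 to 99.9). In the remaining myeloid nuclei the shares were 22.5% and 21.4%. With each library clustered alone, 19 WT-labelled nuclei and 0 KO-labelled nuclei were named dendritic-like, since a KO-labelled group of 24 nuclei led by Clec9a stayed unnamed. The name thus rests on the joint clustering for the KO-labelled nuclei. At 1000 UMIs the dendritic-like shares were 73.3% (11 of 15) and 57.1% (12 of 21).

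Clec9a, Irf8 and Xcr1 stood higher in this group than in the remaining myeloid nuclei of either library, while for Batf3 this held beyond the counting intervals in the KO-labelled library only. Clec9a stood at 1163 CPM in its WT-labelled nuclei (33 UMIs, lowest nucleus 0, median 1, highest 6) and at 967 CPM in its KO-labelled nuclei (63 UMIs, lowest 0, median 1, highest 9). The remaining myeloid nuclei gave 16.6 and 2.94 CPM. Irf8 stood at 3101 and 1198 CPM, against 412 and 70.2 CPM in the rest, with UMIs in 17 of 18 and 22 of 24 nuclei, and its median was 4 UMIs a nucleus in the WT-labelled and 2.5 in the KO-labelled part. Xcr1 stood at 493 and 107 CPM (14 and 7 UMIs, in 7 and 5 nuclei), against 7.75 CPM and 0 UMIs in the remaining myeloid nuclei, the latter allowing up to 1.10 CPM. All 7 Xcr1 UMIs of KO-labelled myeloid nuclei were therefore in this group.

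The genes shared by dendritic cells, and Batf3, were present too. Flt3 gave 8 UMIs in 5 of 18 WT-labelled nuclei and 30 UMIs in 14 of 24 KO-labelled nuclei, or 282 and 461 CPM. Zbtb46 gave 5 UMIs in 4 nuclei and 42 UMIs in 17 nuclei, or 176 and 645 CPM, and the intervals of 57.2 to 411 and 465 to 872 did not overlap. In the other direction, with the KO-labelled level lower, those of Irf8 (2487 to 3821 and 947 to 1495) did not overlap either. The same held for Xcr1 (270 to 828 and 43.2 to 221), while those of Flt3, Clec9a and Batf3 overlapped. Batf3 gave 5 UMIs in 5 nuclei and 20 UMIs in 12 nuclei, or 176 and 307 CPM. The remaining myeloid nuclei had Batf3 at 134 and 119 CPM, and these intervals overlapped in the WT-labelled library (57.2 to 411 and 111 to 160) and did not in the KO-labelled one (188 to 474 and 106 to 132). The group held 5 of 126 WT-labelled and 20 of 343 KO-labelled myeloid Batf3 UMIs. Cd209a and Irf4 had 0 UMIs in all 42 nuclei, which allows up to 106 CPM in the WT-labelled and 46.1 CPM in the KO-labelled part, and Siglech had 1.

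All 10 genes of a list of other cDC1 genes were higher in this group than in the remaining myeloid nuclei in both libraries, though Cd24a rested on 1 UMI in the group in each library and Itgae and Snx22 on 2 in the KO-labelled one. Wdfy4, Naaa and Cadm1 of this list were also among the markers that named the group. Wdfy4, needed for cross-presentation, stood at 1445 and 4899 CPM in the group against 68.6 and 177 CPM in the rest. Cadm1, an adhesion molecule of cDC1, stood at 881 and 2841 CPM against 121 and 175 CPM. Of lists of other cDC2, pDC and mature dendritic cell genes, 1 of 10 was higher in each. Of 12 antigen presentation genes, 6 were higher in both libraries, and of 15 growth factor and development genes also 6. Cd74 stood at 3418 CPM in the WT-labelled part of the group against 2523 CPM in the rest. In the KO-labelled part it was lower, at 2334 against 3269 CPM. H2-Ab1 stood there at 1658 CPM (1360 to 2002), an interval that held the 1748 CPM of the rest. Csf1r, the receptor of the macrophage growth factor, stood at 70.5 and 15.4 CPM against 401 and 453 CPM. These are descriptions, since the same nuclei formed the group from the genes other than the 9. The share of all genes that were higher in the group in both libraries is not given here. The list counts thus have no background to be read against.

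Pairs of members were counted over all kept nuclei. Xcr1 and Clec9a were seen together in 15 WT-labelled nuclei, 50% of those with Xcr1 and 32.6% of those with Clec9a, and in 3 KO-labelled nuclei. Clec9a and Irf8 shared 40 of the 46 WT-labelled and 20 of the 40 KO-labelled nuclei with Clec9a. Clec9a and Cd209a shared 0 WT-labelled and 6 KO-labelled nuclei, the latter 15% of those with Clec9a, of which 5 were in the myeloid class and 0 were dendritic-like. Xcr1 and Irf4 shared 0 in either library. Cd209a and Irf4 were together in 2 WT-labelled and 27 KO-labelled nuclei, the latter 21.6% of those with Cd209a. Flt3 and Zbtb46 were together in 12 and 29 nuclei, and 13 of the 29 were KO-labelled dendritic-like nuclei.

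Of the 22 nuclei with at least 5 members, 10 were WT-labelled and 12 KO-labelled. Of the 22, 10 were dendritic-like, 5 lay in subcluster 4, 2 in subcluster 3 and 1 in subcluster 0, and the other 4 were 2 adipocyte nuclei (1 marked as a doublet), 1 B nucleus and 1 dividing nucleus. The only WT-labelled nucleus with 6 members lay in subcluster 4 and had Irf8 6, Xcr1 3, Flt3 2, Zbtb46 1, Clec9a 1 and Batf3 1 among 6680 UMIs. The most complete KO-labelled one, a dendritic-like nucleus of 3877 UMIs, had Irf8 11, Clec9a 3, Flt3 2, Zbtb46 2, Xcr1 1 and Batf3 1. Another dendritic-like KO-labelled nucleus had Clec9a 9, Irf8 7, Flt3 5, Zbtb46 3 and Xcr1 2 among 5165 UMIs.

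**Figure D3:**
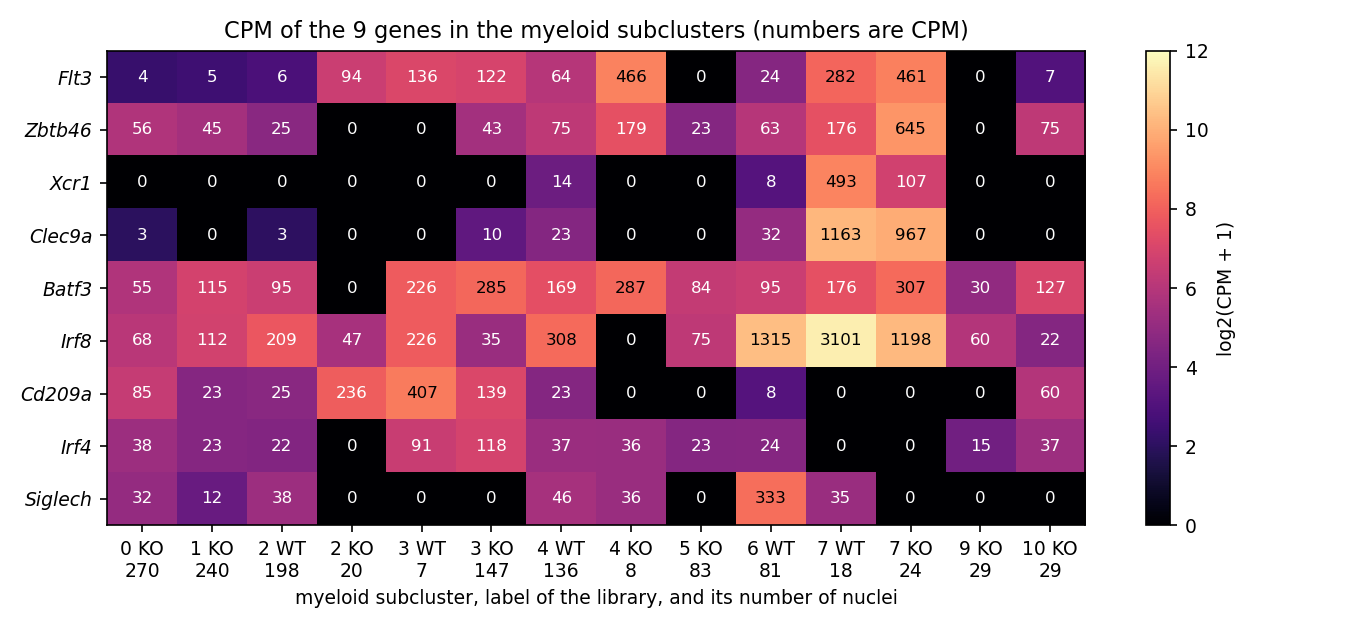
Level of the 9 genes (CPM) in the subclusters of myeloid nuclei, by library. Clec9a, Xcr1 and Irf8 are highest in the dendritic-like subcluster 7, Cd209a and Irf4 are at 0 there, and Batf3, Cd209a and Irf4 are high in subcluster 3.

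A second set of members lay in subcluster 3, with 147 KO-labelled and 7 WT-labelled nuclei led by Chil3, Fn1 and Aldh1a2. It stayed unnamed, since its 3 monocyte markers (Ly6c2, Ccr2 and Chil3) led the next class by fewer than the 2 required. Its KO-labelled nuclei had Batf3 at 285 CPM (138 UMIs), Cd209a at 139 CPM (67 UMIs), Flt3 at 122 CPM (59 UMIs) and Irf4 at 118 CPM (57 UMIs). Each came from a minority of the 147 nuclei, Batf3 from 67, Cd209a from 21, Flt3 from 19 and Irf4 from 40. Irf8 stood at 35.2 CPM and Xcr1 and Siglech had 0 UMIs. At least 2 members were found in 49 of the 147, 33.3%. The chemokine receptor Ccr2 was at 1152 CPM, Itgax at 97.2 CPM and Zbtb46 at 43.4 CPM, against 61.4 CPM over all KO-labelled myeloid nuclei. The cDC2 lectin genes Mgl2 and Clec10a were at 219 and 238 CPM, against 435 and 761 CPM in subcluster 0 and 569 and 415 CPM in subcluster 1. The 7 WT-labelled nuclei had Cd209a at 407 CPM from 9 UMIs in 2 nuclei.

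Cd209a had different company elsewhere. Subcluster 0, 270 KO-labelled macrophage-like nuclei with Mrc1 at 3583 CPM, had Cd209a at 85.4 CPM (85 UMIs) beside Cd209b at 381 CPM and Cd209f at 536 CPM. In subcluster 3, Cd209b stood at 4.14 CPM (2 UMIs) and Cd209f at 10.3 CPM (5 UMIs). The intervals of Cd209a itself, 68.2 to 106 and 107 to 176 CPM, did not overlap. By share of nuclei with a Cd209a UMI the order was the reverse. It was 21.5% in subcluster 0 (58 of 270 nuclei) and 14.3% in subcluster 3 (21 of 147). Cd209d was at 361 CPM in subcluster 0 and 74.4 CPM in subcluster 3.

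Subcluster 4, with 136 WT-labelled and 8 KO-labelled nuclei led by H2-M2, Cacnb3 and Ccl22, held members beside genes of mature, migrating dendritic cells. In its WT-labelled nuclei Batf3 stood at 169 CPM, Zbtb46 at 75.3 CPM, Flt3 at 63.9 CPM and Irf8 at 308 CPM. Ccr7, the receptor that guides dendritic cells to lymph nodes, stood at 242 CPM, and the actin bundler Fscn1 at 135 CPM. Its 8 KO-labelled nuclei differed from these, with Flt3 at 466 CPM (13 UMIs), Batf3 at 287 CPM (8 UMIs), Zbtb46 at 179 CPM (5 UMIs) and Irf8 at 0 UMIs. Ccr7 stood at 537 CPM and Fscn1 at 466 CPM in them. Ccl22 had 81 UMIs at 2901 CPM in the 8 KO-labelled and 29 UMIs at 66.2 CPM in the 136 WT-labelled nuclei. The subcluster also passed 9 T or NK and 6 B markers. It stayed unnamed, because the dendritic cell marker Cacnb3 and no T or NK marker was among its 10 leading genes, and 21 of its nuclei were marked as doublets. Ccr7 stood at 210 CPM in T or NK nuclei and 116 CPM in B nuclei of the WT-labelled library, and the part of lymphocyte RNA in the level of subcluster 4 was not tested. With the myeloid nuclei clustered at the finer resolution of 1, H2-M2, Cacnb3 and Ccl22 were among the leading genes of 76 nuclei with 0 doublets, which had Batf3 at 66 UMIs, Irf8 at 47 and Flt3 at 34. A separate T or NK cluster of 66 nuclei with 21 doublets had Irf8 at 84 UMIs, Siglech at 16, Batf3 at 14 and Flt3 at 6. At least 2 members were found in 56 of the 136, 41.2%. Without this subcluster the myeloid share with at least 2 members was 17.0% in the WT-labelled and 23.0% in the KO-labelled library.

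Subcluster 6, 81 WT-labelled nuclei led by Cxcl10 and Marco, had Irf8 at 1315 CPM (166 UMIs, 61 nuclei) and Siglech at 333 CPM (42 UMIs, 17 nuclei). Cd209b stood at 1061 CPM there, and Cd209a had 1 UMI. Its Clec9a and Flt3 levels were 31.7 CPM and 23.8 CPM. Of its Siglech UMIs, 12 came from 1 nucleus and 6 from another. The subcluster passed 4 T or NK and 2 B markers, and it also stayed unnamed. The part of lymphocyte RNA in its levels was not tested.

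Between libraries, myeloid levels of 4 members were at most 0.5 times as high in the KO-labelled as in the WT-labelled library, 1 was at least 2 times as high and 4 lay between. Of the 11495 genes with at least 20 myeloid UMIs, 24.3% were at least 2 times higher and 15.7% at most 0.5 times, and the median log2 ratio was 0.03 over these genes and -0.23 over the members. Leaving mitochondrial genes and Malat1 out of the totals moved all log2 ratios by -0.27 and changed these counts from 2789 higher and 1801 lower to 2225 and 2696. Most WT-labelled myeloid nuclei lay in cluster 4 of the joint clustering (439 of 441) and most KO-labelled ones in clusters 3 and 9, so the class is not the same mixture in both.

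Of the cDC1 genes, Xcr1 was at 22.5 CPM in WT-labelled and 2.51 CPM in KO-labelled myeloid nuclei, a ratio of 0.112 (0.0401 to 0.272). Clec9a was at 51.5 and 25.5 CPM, a ratio of 0.495 (0.338 to 0.730). Irf8 was at 494 and 96.6 CPM, a ratio of 0.196 (0.168 to 0.228), and was also lower in KO-labelled adipocytes (ratio 0.211), ASPC nuclei (0.0569) and T or NK nuclei (0.397). Siglech was at 80.5 and 14.7 CPM, a ratio of 0.183 (0.122 to 0.271). The WT-labelled library held more B nuclei, which carry Irf8, and the part of their RNA in the myeloid values was not tested.

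Cd209a was at 30.05 and 64.7 CPM, a ratio of 2.15 (1.44 to 3.33), the only member past the fold of 2 upward. Irf4 was at 30.05 and 44.9 CPM, a ratio of 1.49 (0.986 to 2.34). Flt3, Zbtb46 and Batf3 had ratios of 0.852 (0.596 to 1.24), 1.06 (0.776 to 1.47) and 0.911 (0.741 to 1.13), and their intervals held 1. Under other settings their log2 ratios took either sign, from -0.89 to 0.15, -0.57 to 0.50 and -0.40 to 0.21. The log2 ratio of Clec9a was -1.01, and -0.82 with a correction for intronic length, -1.58 without subcluster 4 and -2.50 without subcluster 7. That of Cd209a was 1.11, and 0.84 without mitochondrial genes and Malat1 or without subcluster 4.

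**Figure D4:**
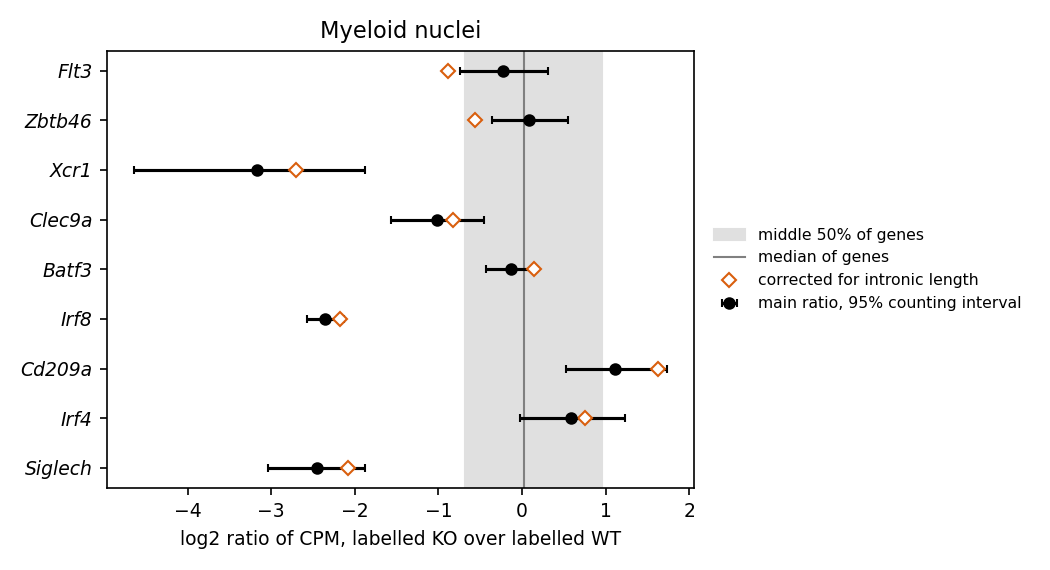
Ratio of the KO-labelled to the WT-labelled myeloid level for each of the 9 genes (log2), with exact 95% intervals for counting error. Xcr1, Irf8, Siglech and Clec9a lie below a log2 ratio of -1, and Cd209a lies above 1.

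The listed genes around the members were read in the same myeloid nuclei, where 24.3% of all tested genes were at least 2 times higher and 15.7% at most 0.5 times. Of 10 mature dendritic cell genes, 8 were at most 0.5 times as high in the KO-labelled library, with Ccr7 at 121 and 7.54 CPM, Il4i1 at 386 and 20.1 CPM and Cacnb3 at 147 and 8.98 CPM. Cd83 was higher, at 60.1 and 126 CPM. Ccr7 also stood at 210 CPM in T or NK nuclei and 116 CPM in B nuclei of the WT-labelled library. The part of lymphocyte RNA in these myeloid levels was not tested. The list's median log2 ratio was -3.56. Subcluster 4 had 136 WT-labelled and 8 KO-labelled nuclei, and its WT-labelled nuclei had Ccr7 at 242, Fscn1 at 135 and Cacnb3 at 303 CPM. Its part in the ratios of the list was not tested. Of the 9 other cDC1 genes with enough UMIs, 1 was at least 2 times higher and 2 at most 0.5 times. Of 9 other cDC2 genes, Mgl2 (182 and 372 CPM) and Notch2 (89.1 and 493 CPM) were at least 2 times higher and none was at most 0.5 times, so the 2 of 9 lie near the share over all genes.

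Of 13 growth factor and development genes with enough UMIs, 3 were at least 2 times higher (Spi1, Ikzf1 and Zeb2) and 5 at most 0.5 times. The ligand gene Flt3l was at 37.6 and 8.98 CPM, and Id2, needed for cDC1 development, at 173 and 40.6 CPM. Bcl11a, a factor of pDC and B cells, was at 162 and 35.6 CPM. Of 7 pDC genes with enough UMIs, Runx2 (18.2 and 87.3 CPM) and Pacsin1 (3.22 and 7.54 CPM) were at least 2 times higher. Pacsin1 rested on 3 and 21 UMIs, and its ratio interval of 0.70 to 12.3 held 1. Ccr9, Spib and Ly6d were at most 0.5 times. Spib and Ly6d also passed as markers of the B cluster and the main T or NK cluster of the WT-labelled library. The part of lymphocyte RNA in their myeloid levels was not tested. Csf2, which encodes the growth factor GM-CSF, had 0 myeloid UMIs in either library. Flt3l was highest outside the myeloid class, at 299 CPM in the unnamed Ccl19 and Ccl21a nuclei of the WT-labelled library. Mural nuclei of that library followed at 141 CPM, from 2 UMIs in 10 nuclei, and T or NK nuclei at 127 CPM. Of 12 antigen presentation genes, Cd86 was at least 2 times higher, 3 were at most 0.5 times (H2-DMb2, H2-Oa and Cd40), and Cd74 was at 2550 and 3247 CPM.

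Nuclei with at least 5 Siglech UMIs, a limit chosen after the values were seen, numbered 10 in the WT-labelled and 1 in the KO-labelled library. The WT-labelled ones lay among B nuclei (5), T or NK nuclei (3) and myeloid subcluster 6 (2). They had Tcf4, the factor that sets pDC identity, at 2912 CPM in 10 of 10 nuclei, against 402 CPM in nuclei without Siglech. Ccr9 stood at 500 against 29.3 CPM, Bst2 at 500 against 61.0 CPM and Runx2 at 273 against 20.98 CPM, each in 5 of the 10 nuclei. Ly6d stood at 364 against 278 CPM, and Cox6a2 and Klk1 had 0 UMIs in the 10. A subcluster 6 nucleus with 12 Siglech UMIs and 1 UMI of the pDC list and a B nucleus with 7 and 5 had none of Ccr9, Bst2 and Runx2.

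The KO-labelled nucleus had Siglech 12, Irf8 17, Tcf4 37, Runx2 26, Pacsin1 8 and Ccr9 4 among 4668 UMIs, with 80 UMIs over 10 pDC genes that leave out the members. It had 0 Cd79a UMIs, although its cluster carried the B markers. No cluster was named for pDC in either library. Siglech at 1 to 4 UMIs had weaker company, with Tcf4 at 1012 CPM in 91 WT-labelled nuclei and 954 CPM in 39 KO-labelled nuclei. The macrophage-like subcluster 0 held 32 of the KO-labelled Siglech UMIs.

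**Figure D5:**
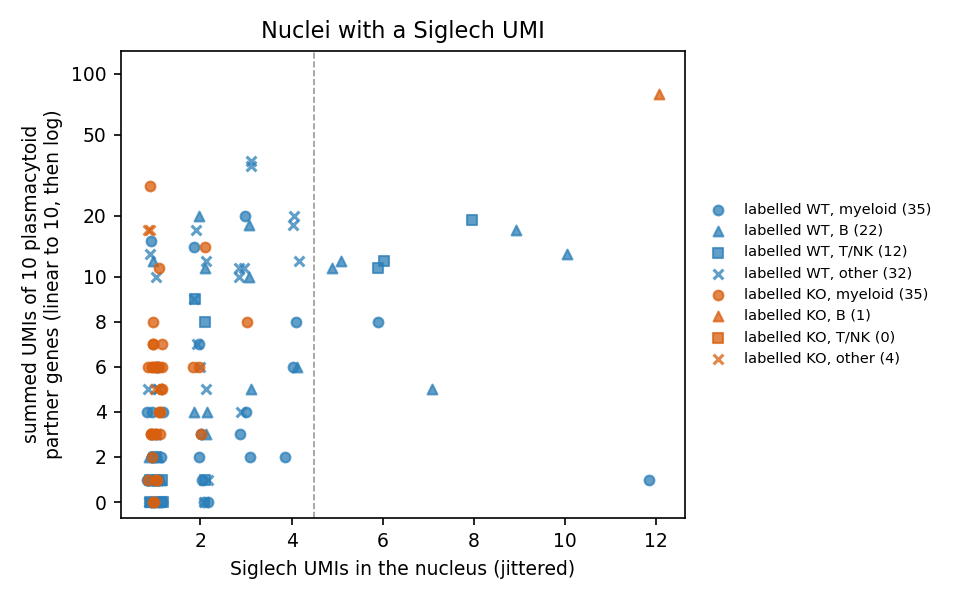
Siglech UMIs per nucleus against the summed UMIs of 10 other pDC genes, by class and library. Nuclei with at least 5 Siglech UMIs number 10 and 1, and the KO-labelled nucleus with 12 stands at 80 UMIs of the list.

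The genes whose pattern over 15 units of class and library was most like that of each member with at least 100 UMIs are given by Pearson's r of log2(CPM + 1), as a description of units that share libraries. For Batf3 these were Tpcn2 (0.943), Cfp (0.941) and Htt (0.925), and for Irf8 they were Napsa (0.966), Cd72 (0.956) and Prpf38b (0.953). Siglech was most like Bcl11a (0.964), Apol7c (0.954) and Pld4 (0.944), and Clec9a like Pik3r6 (0.916), Plekho1 (0.914) and Plk2 (0.893). Zbtb46 was most like Tspan7 (0.901), Plekhg1 (0.90) and Plxna4 (0.878). Flt3 was most like Ms4a14 (0.857), Mpeg1 (0.855) and Tmem189 (0.847), Cd209a like Riok3 (0.843), Trmt2b (0.816) and Wfdc17 (0.801), and Irf4 like Copb2 (0.865), Acot8 (0.865) and Slc33a1 (0.831). Xcr1, at 50 UMIs in all, was too sparse for this measure.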

How the data were processed

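Single-nucleus libraries (10x Genomics 3′ chemistry) of 2 pooled iWAT samples were analysed. The authors deposited UMI counts per gene and barcode with feature and barcode lists, made with Cell Ranger 6.1.1 per the file headers, and the submitters' processing notes name Seurat 4 and mm10. Deposited UMIs per library were 9376351 (WT-labelled) and 19655049 (KO-labelled). Barcodes with at least 500 genes and at most 5% mt- UMIs were kept. Merged counts were clustered in Seurat 5.3.0 (R 4.3.3): log-normalised to 10000, 2000 variable genes less the 9 members, 20 components, 20 neighbours, Louvain resolution 0.5, no batch correction. Myeloid nuclei were clustered again. A cluster was named when at least 3 markers of a list led the next list by 2, each in at least 5% of its nuclei at a 2-fold higher level, and no other list had more markers among its 10 leading genes. Scrublet (scanpy 1.11.5) marked 92 KO-labelled doublets. It marked 0 WT-labelled nuclei automatically, so the highest 4.00% (146) were used. Doublets were kept.

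UMIs were summed per class and library, with exact Poisson, Clopper-Pearson and conditional binomial 95% intervals (scipy 1.17.1, statsmodels 0.14.6). With 1 library per genotype, no test was made. Ratios used genes with at least 20 UMIs. The scripts were tested on simulated data, and edgeR 4.0.16 gave TMM factors for an alternative. Named were all members, the 3 genes most like each member with at least 100 UMIs, and genes of context lists. The members and lists were chosen with earlier results of these data known. No column was left unmapped. Promoters came from RefSeq (GRCm38.p6).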

Additional observations from a re-analysis of the deposited data

How the results depend on the processing

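No paired analysis was possible because each genotype has 1 library, and for the same reason no library could be left out. The share of nuclei with at least 2 members moved with depth and with the rule. In all WT-labelled nuclei it was 7.62%, and 15.6% with at least 1000 genes a nucleus, 4.36% at 1000 UMIs, 2.00% at 500 UMIs, 2.44% for at least 3 members and 2.74% for the 7 members without Irf4 and Irf8. In all KO-labelled nuclei it was 9.71%, and 2.19% at 1000 UMIs, 0.713% at 500 UMIs, 2.85% for at least 3 members and 5.03% for the 7 members. WT-labelled myeloid nuclei gave 24.5%, and 36.5% with at least 1000 genes, 14.7% at 1000 UMIs, 6.12% at 500 UMIs, 10.2% for at least 3 members, 13.2% for the 7 members and 17.0% without subcluster 4, an alternative chosen after seeing the data. KO-labelled myeloid nuclei gave 23.5%, and 26.9% with at least 1000 genes, 30.5% with at most 1% mt- UMIs, 7.27% at 1000 UMIs, 2.00% at 500 UMIs, 8% for at least 3 members and 12.9% for the 7 members. Genes at most 0.5 times as high fell from 1801 to 1152 at a minimum of 50 UMIs, where fewer genes were tested. The 24 KO-labelled dendritic-like nuclei became 0 when each library was clustered alone, because a group of 24 nuclei stayed unnamed with the mast cell marker Kit, and none of the dendritic cell markers used for naming, among its 10 leading genes. The first of those genes was Clec9a, which like the other members was not used for naming. The WT-labelled count was then 19. Of 62 myeloid ratios under alternatives, 55 stayed within their counting interval, 7 moved beyond it and none that passed a fold of 2 changed sign. The log2 ratio of Clec9a ranged from -2.50 to -0.82, the lowest without subcluster 7, and that of Cd209a from 0.84 to 1.62. Causes of these moves were not tested. Xcr1 was the sparsest member, at 50 UMIs.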
